A study of Mus musculus with 721 samples.

Results

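The cells described here are endocrine cells of the embryonic mouse pancreas, and the comparison is between those present at embryonic days E11.5 and E12.5 and those present at E14.5. They come from a series of 721 single cells from Neurogenin 3-eGFP embryos, in which a green fluorescent reporter marks cells that switch on the endocrine progenitor gene Neurog3. eGFP-positive cells of the pancreata were sorted into 96-well plates and their full-length cDNA was sequenced by SMART-seq, 1 cell per library. A floor of 100000 sequenced fragments and of 1500 genes reaching 1 FPKM (fragments per kilobase of transcript, corrected for depth) left 658 cells. Among the 257 kept cells of E11.5, E12.5 and E14.5 in run 1, endocrine cells were chosen by 4 measured transcripts, Chga, Chgb, Pax6 and Neurod1, at least 2 of which had to reach 10 FPKM. That gave 103 endocrine cells, of which 18 were from E11.5, 9 from E12.5 and 76 from E14.5. All 3 groups carry the Neurogenin 3-eGFP reporter and no treatment, and they differ by embryonic day alone as far as the labels go. The labels name neither the embryos behind each group, nor how many were pooled, nor the strain. Cells of a day may therefore share an embryo, and cells were not used as replicates: the unit of comparison is the cell set of 1 day and 1 run, which gives 2 early sets and 1 late set.

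In the mouse, pancreatic endocrine cells form in successive waves. The early wave arises as the pancreatic buds form and is known for glucagon cells, some of which hold another hormone as well; the later and larger wave arises from the branching trunk epithelium, where Neurog3 starts a cascade through Fev, Neurod1 and Pax6 towards alpha, beta, delta, epsilon and PP cells. Hormones are made as precursors, cut by the prohormone convertases Pcsk1 and Pcsk2 and stored with granins such as Chga and Chgb in dense-core granules.

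The promoters of 4 hormone genes that carry the comparison are printed for orientation, because Neurog3 and Neurod1 are bHLH proteins that bind E-box sequences and Pax6 and Pdx1 hold homeodomains. Each line gives the 250 bases before an annotated start in RefSeq (GRCm38.p6), 5′ to 3′ on the strand of the gene, with matches to the E-box CATCTG, read on both strands, in capitals. Of 5 genes looked up (the 4 below and Ins2), 4 matched.
Gcg, chr2:62483654-62483903, minus strand: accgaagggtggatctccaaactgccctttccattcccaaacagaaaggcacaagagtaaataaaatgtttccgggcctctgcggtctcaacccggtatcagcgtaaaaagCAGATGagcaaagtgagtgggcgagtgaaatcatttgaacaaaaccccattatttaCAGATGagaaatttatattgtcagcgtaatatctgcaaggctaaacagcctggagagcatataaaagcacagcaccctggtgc
Pyy, chr11:102107833-102108082, minus strand: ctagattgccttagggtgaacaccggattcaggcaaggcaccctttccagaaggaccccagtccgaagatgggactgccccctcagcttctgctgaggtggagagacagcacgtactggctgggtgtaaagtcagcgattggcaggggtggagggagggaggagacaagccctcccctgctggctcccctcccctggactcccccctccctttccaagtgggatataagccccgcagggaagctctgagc
Ghrl, chr6:113717693-113717942, minus strand: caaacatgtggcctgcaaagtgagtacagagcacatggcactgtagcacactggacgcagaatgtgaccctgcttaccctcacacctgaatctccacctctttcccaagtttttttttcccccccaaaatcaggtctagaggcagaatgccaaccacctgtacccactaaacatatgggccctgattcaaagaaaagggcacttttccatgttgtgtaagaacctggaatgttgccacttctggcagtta
Iapp, chr6:142298175-142298424, plus strand: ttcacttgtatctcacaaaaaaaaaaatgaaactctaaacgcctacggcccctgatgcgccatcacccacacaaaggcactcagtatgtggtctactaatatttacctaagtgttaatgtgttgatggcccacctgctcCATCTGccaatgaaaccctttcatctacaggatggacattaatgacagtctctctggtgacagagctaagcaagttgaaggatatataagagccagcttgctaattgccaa
The Gcg window holds 2 E-box matches and the Iapp window 1, while the Pyy and Ghrl windows hold 0. The homeodomain core TAATTA, which overlaps no E-box match, is in none of these 4 windows. Among 32851 promoter windows of the same length, 14.4% hold the E-box and 4.84% hold TAATTA. A match is a string of letters and no evidence of binding.

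The share of kept cells that were endocrine was 24.7% at E11.5 (18 of 73; exact Clopper-Pearson 95% interval 15.3 to 36.1), 10% at E12.5 (9 of 90; 4.68 to 18.1) and 80.9% at E14.5 run 1 (76 of 94; 71.4 to 88.2). These intervals, like all those given here, cover counting error only. Most sorted cells of the early days thus lay outside the definition, and most of E14.5 lay inside it. The early endocrine cells had 174036 to 1440000 fragments and those of E14.5 had 113328 to 1100000, with medians of 634053, 588365 and 593375 for the 3 days in order. The median number of genes detected was 6148.5, 5504 and 5066.5. The eGFP transcript was at 1 FPKM or more in 1 of 18, 0 of 9 and 12 of 76 cells. Index pairs are reused between plates, so all 18 and all 9 early libraries share their pair with a library of the E14.5 run 1 plate. The highest Pearson correlation between an early cell and an E14.5 run 1 cell was 0.712. Between the E14.5 plates of run 1 and run 2 a single pair of cells reached 0.879, against 0.717 for the next pair.

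Sex and day are confounded. Y-linked transcripts were found in 17 of 18 and 9 of 9 early endocrine cells and in 0 of 76 cells of E14.5 run 1, and Xist, the transcript that silences an X chromosome in females, in 0 of 18, 0 of 9 and 73 of 76. Sex of the embryos and wave cannot be told apart in this comparison. The E15.5 cells hold Y-linked transcripts like the early ones, and some values are given against them. With E15.5 run 1 as the late set the mean difference of Pyy and of the Y-linked Eif2s3y came close to none, with values given below. It also fell below 2 log2 units for Cald1 (from 3.22 to 1.6), Tnfaip8 (from 4.17 to 1.78) and Myc (from 3.70 to 1.82), genes described further on.

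Markers of other cell types were read in the same cells. The acinar or tip list (13 genes) summed to 0 to 5664 FPKM per cell at E11.5 (median 180), 0 to 20779 at E12.5 (median 113) and 0 to 323 at E14.5 (median 6.12); 10 of its 13 genes averaged 1 FPKM or more on each early day and 7 of 13 at E14.5. Prss2, Pnlip and Gp2 were listed at 0 in all E11.5 cells and Ctrb1, Pnlip and Gp2 in all E12.5 cells. Of the other lists, the leukocyte, endothelial, mesenchymal, erythroid and mesothelial sums had medians of 0 to 2.97 FPKM on the 3 days, with Aif1, Emcn, Twist1, Hba-a1 and Hba-a2 among the genes listed at 0 in early cells. Neural crest or neuronal markers had medians of 52.7, 17.4 and 18.3 and a highest sum of 2999 in an E11.5 cell. Wells with at least 2 defining markers of acinar, leukocyte or endothelial cells at 10 FPKM numbered 3 of 18, 3 of 9 and 1 of 76, and results are given with and without them where this matters.

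The 4 transcripts that chose the cells are described without a test. Chgb, a granin of the secretory granule, averaged 1483 FPKM at E11.5 (lowest 43.3, median 287, highest 14735), 1662 in E12.5 cells (4.87, 239 and 12580) and 7393 at E14.5 (2.77, 3822 and 46036). The middle E14.5 cell thus held over 10 times the Chgb of the middle early cell, with overlapping ranges. Chga, the other granin, averaged 590, 209 and 671 FPKM, and its mean difference of -0.93 was -2.78 against E15.5 run 1. Pax6, which is needed for glucagon and insulin expression, averaged 292, 236 and 346, and Neurod1, a direct target of Neurog3, 293, 281 and 377. All 4 transcripts reached 10 FPKM in 12 of 18, 6 of 9 and 60 of 76 cells, and 2 alone in 5, 2 and 5. Just outside the definition, 8, 2 and 11 kept cells held a single transcript at that level. Of the 5 E11.5 cells with only 2 transcripts, 0 held Pax6 and 4 held the acinar and tip enzyme Cpa1 at 10 FPKM or more. Of the 20 early cells with 3 or 4 transcripts, 20 held Pax6, 19 held Pyy at 100 FPKM or more and 9 held Gcg.

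Peptide YY and glucagon were the hormones of the early cells. Pyy, a peptide of the neuropeptide Y family (ENSMUSG00000017311.9, mm10 chromosome 11, 102106676 to 102107832), averaged 20591 FPKM at E11.5 (lowest 0, median 13832, highest 79482), 19034 in E12.5 cells (0, 23227 and 55176) and 4451 at E14.5 run 1 (0, 18.1 and 72214). The ranges overlap, and the medians of the early days are far above that of E14.5. At 100 FPKM or more, Pyy was held by 21 of 27 early cells (77.8%; 57.7 to 91.4) and 34 of 76 late cells (44.7%; 33.3 to 56.6), so that the intervals do not overlap. Among cells with 3 or 4 marker transcripts the counts were 19 of 20 and 31 of 71, and without the wells that hold markers of other types 19 of 21 and 34 of 75. Pyy was not particular to early days: it averaged 4391 FPKM in E14.5 run 2 but 19702 and 18823 in the E15.5 runs, and its mean difference on the log2(mean FPKM + 1) scale, 2.15 against E14.5 run 1, was 0.01 against E15.5 run 1.

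**Figure D1:**
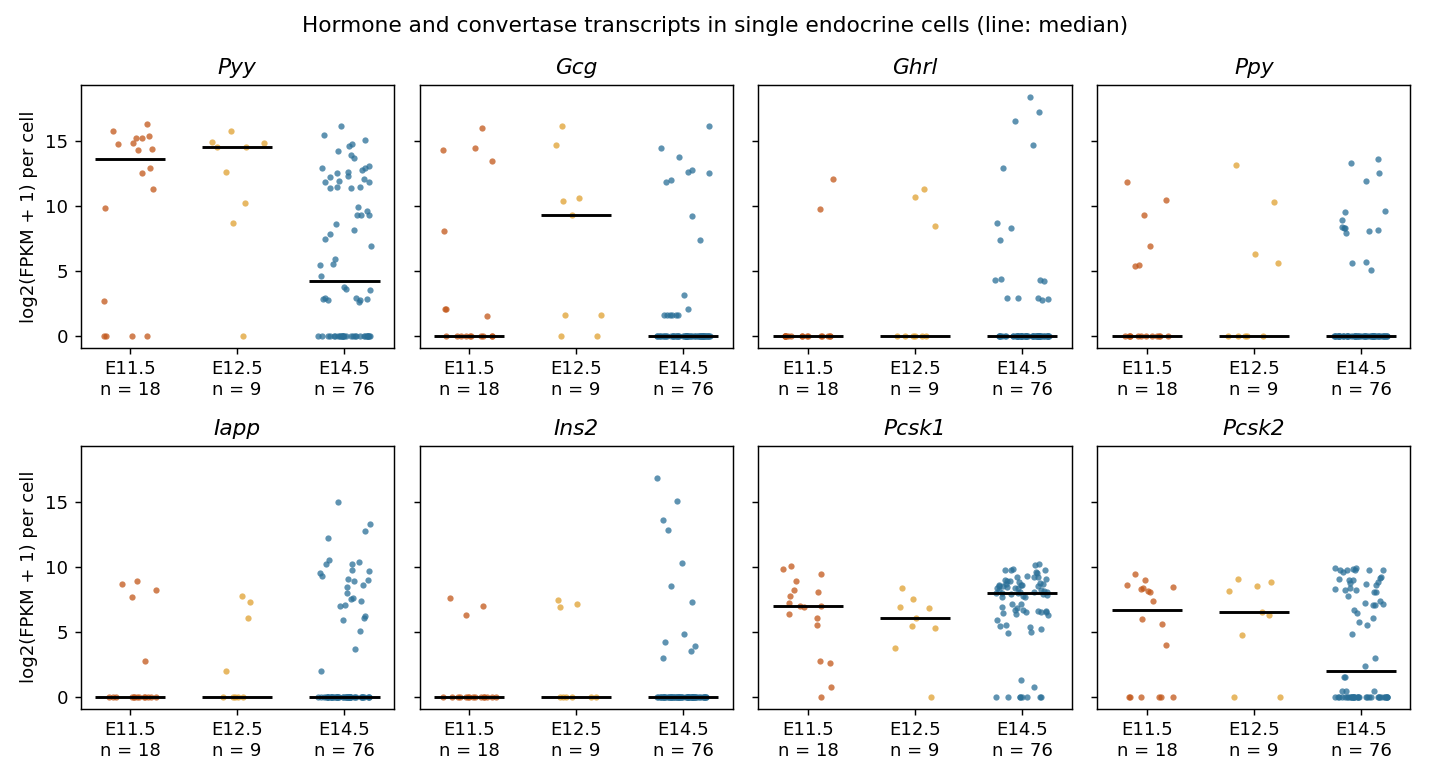
Level of 6 hormone and 2 convertase transcripts in each endocrine cell, as log2(FPKM + 1), for E11.5 (18 cells), E12.5 (9) and E14.5 run 1 (76); the black line is the median. Early cells mostly sit high for Pyy and Pcsk2, and the cells highest in Ins2, Iapp and Ghrl are from E14.5.

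Glucagon was held more often early than late, with overlapping intervals. Gcg (ENSMUSG00000000394.9, mm10 chromosome 2, 62474530 to 62483650) averaged 6680 FPKM at E11.5 (0, 0 and 65081), 11505 in E12.5 cells (0, 634 and 73112) and 1822 at E14.5 (0, 0 and 74266). It reached 100 FPKM in 10 of 27 early cells (37%; 19.4 to 57.6) and 10 of 76 late cells (13.2%; 6.49 to 22.9). In these positive cells alone the mean Gcg level was 24048, 20708 and 13842 FPKM, closer together than the means over all cells. All 10 early Gcg cells also held Pyy, as did 9 of 10 late ones. In turn, 8 of 18 E11.5 cells held Pyy with none of glucagon, insulin, ghrelin, Ppy or somatostatin, against 0 of 9 at E12.5 and 13 of 76 at E14.5.

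Ghrelin, the epsilon cell hormone, was in the early set a companion of glucagon. Ghrl reached 100 FPKM in 5 of 27 early cells (18.5%; 6.30 to 38.1) and 8 of 76 late cells (10.5%; 4.66 to 19.7). All 5 early cells also held Gcg, against 2 of the 8 late ones. The cells highest in Ghrl were late: the top values for the 3 days in order were 4217, 2597 and 345126 FPKM. The mean of E14.5 run 1, 8357 FPKM, rests on those few cells. Run 2 of the same day averaged 104 FPKM, below the 282 of E11.5 and the 515 of E12.5, so the direction of Ghrl turns against that run. Ppy, pancreatic polypeptide, reached 100 FPKM in 6 of 27 early and 13 of 76 late cells and averaged 329, 1168 and 482 FPKM.

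Insulin and amylin had low means in the early cells, and somatostatin was rare on all 3 days. Ins2 averaged 22.1 FPKM at E11.5 and 48.1 at E12.5, with no cell above 196, and 2267 at E14.5, where a single cell reached 117259. Insulin (Ins1 or Ins2) was still at 100 FPKM or more in 5 of 27 early cells (18.5%; 6.30 to 38.1) and 8 of 76 late ones (10.5%; 4.66 to 19.7), so the early insulin signal was weak in level and not detectably rarer. When logs were averaged over cells, the Ins2 difference turned from -6.07 to 0.41 and that of Ghrl from -4.45 to 0.51. Reads of Ins1 and Ins2, near-identical copies, may be divided uncertainly between them. Iapp, the amylin peptide stored with insulin, averaged 76.4, 49.5 and 874 FPKM. It reached 100 FPKM in 6 of 27 early cells (22.2%; 8.62 to 42.3) and 23 of 76 late cells (30.3%; 20.2 to 41.9), intervals that overlap. The highest late cells held 33135 and 10189 FPKM, so the late mean leans on a few cells. Sst reached 100 FPKM in 0 of 27 early cells, which allows a share of up to 12.8% by the exact interval, and in 1 of 76 late cells. That late cell held 1049 FPKM, and in E14.5 run 2 the count was 0 of 75.

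Over the 12 islet hormone genes, a rule of size was used: a gene is counted where both early sets lie at least 2 log2 units, or 4-fold, on the same side of E14.5 run 1 in log2(mean FPKM + 1). By this rule Pyy was higher early, and Ins1, Ins2, Sst, Ghrl, Iapp, Npy and Cck were higher late. This held for Ghrl against run 1 alone, and for Sst through 1 late cell. Of all 13895 genes tested, 0.943% were higher early and 3.23% higher late by that rule. The median of the mean differences over the list was -3.58. It was 0.18 with logs averaged over cells and -0.80 in cells with Gcg at 100 FPKM or more, so it depends on a few high cells. At least 2 of the 5 main hormones were found in 8 of 27 early cells (29.6%; 13.8 to 50.2) and 11 of 76 late cells (7.45 to 24.4%). None of the 5 was found in 11 of 18 cells at E11.5 (35.7 to 82.7%), 1 of 9 at E12.5 (0.28 to 48.2%) and 50 of 76 at E14.5, and the intervals of the early days overlap.

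The convertases were found together in most early cells, with overlapping intervals against E14.5. Pcsk1, which cuts proinsulin, averaged 259 FPKM at E11.5 (0, 126 and 1069), 99.9 in E12.5 cells (0, 65.7 and 328) and 293 at E14.5 (0, 246 and 1159). Pcsk2, which releases glucagon from its precursor, averaged 187 (0, 112 and 677), 203 (0, 92.4 and 528) and 201 (0, 3.02 and 975). The means of Pcsk2 were alike, but its median was far lower at E14.5, where 36 of 76 cells reached 10 FPKM. Both enzymes reached 10 FPKM in 18 of 27 early cells (66.7%; 46 to 83.5) and 34 of 76 late ones (44.7%; 33.3 to 56.6). In the E15.5 runs the share with both was 57.3% and 64.9%, so pairing was not particular to early days. Pcsk1 without Pcsk2 was seen in 4 of 27 (14.8%; 4.19 to 33.7) against 32 of 76 (42.1%; 30.9 to 54). Without the wells that hold markers of other types both enzymes were in 17 of 21 early cells (81%; 58.1 to 94.6) and 33 of 75 late ones (44%; 32.5 to 55.9). Of 21 tested genes for granules and prohormone processing, 0 were higher early and 1 was higher late by the rule of size. That gene is Sytl4, a Rab27-binding protein of secretory granules, listed at 0 in all early cells and at 10 FPKM or more in 8 of 76 late cells. The list's median difference was -0.13 at E11.5 and -0.64 at E12.5 on the log2 scale, against 0.08 and -0.31 for all genes. The median of the mean differences was -0.55, and -1.08 against E15.5 run 1.

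Alpha cell genes were present on all 3 days. Irx2, an alpha cell homeobox gene, averaged 12.8, 6.15 and 6.72 FPKM, and reached 10 FPKM in 12 of 27 early cells (44.4%; 25.5 to 64.7) against 10 of 76 late cells (13.2%; 6.49 to 22.9). Thus the share of cells with Irx2 was higher early although the mean at E12.5 was not. Of 19 tested genes of the alpha list, Gc, the vitamin D binding protein of liver and alpha cells, was higher early by the rule of size (154 and 167 against 7.21 FPKM) and 0 were higher late. In cells with Gcg at 100 FPKM or more the mean difference of Gc was -1.48, so its direction turned there. The list's median difference was 0.50 and 0.13.

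Of the beta cell genes, Pax4 stood apart from the rest. Pax4, which favours the beta over the alpha fate, averaged 90.6 FPKM at E11.5 (0, 35 and 780), 76.4 in E12.5 cells (0, 0 and 441) and 559 at E14.5 (0, 207 and 2524). It was past the rule of size, the only one of 16 tested genes of the beta list that was, though the single-cell ranges overlap. Pdx1, the pancreas and beta cell homeobox factor, averaged 9.63, 4.22 and 12.8 FPKM, and Nkx6-1, which maintains beta identity, 9.69, 3.86 and 19.6. The glucose transporter Slc2a2 averaged 0, 0.911 and 1.79 FPKM and was not at 10 FPKM in any early cell. The list's median difference was -0.38 at E11.5 and -1.43 at E12.5.

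A smaller share of early endocrine cells carried Neurog3 or Fev, and the difference in share lay more in Fev than in Neurog3. In mean level it did not, with mean differences of -2.13 log2 units for Neurog3 and -1.98 for Fev. Neurog3 averaged 144 FPKM at E11.5 (0, 0 and 1137), 39.7 in E12.5 cells (0, 0 and 331) and 334 at E14.5 (0, 2.68 and 3521). Fev, a serotonergic-type ETS factor that follows it, averaged 9.53, 5.18 and 30.9. Neurog3 reached 10 FPKM in 9 of 27 early cells (33.3%, 16.5 to 54) and 34 of 76 late cells (44.7%, 33.3 to 56.6). Fev did so in 5 of 27 (18.5%, 6.30 to 38.1) and 37 of 76 (48.7%, 37 to 60.4). For each gene alone the intervals overlap. Either one reached 10 FPKM in 10 of 27 early cells (37%; 19.4 to 57.6) and 54 of 76 late cells (71.1%; 59.5 to 80.9), intervals that do not overlap. Without the wells that hold markers of other types the shares were 38.1% (18.1 to 61.6) and 70.7% (59 to 80.6), and among cells with 3 or 4 marker transcripts 35% (15.4 to 59.2) and 70.4% (58.4 to 80.7), where the intervals overlap in both cases. Runx1t1, a transcriptional co-repressor, averaged 48.8, 9.49 and 104 FPKM and was at 10 FPKM in 10 of 27 against 63 of 76 cells. Of the 17 tested progenitor genes, 0 were past the rule of size in either direction, and the median difference was -0.39 at E11.5 and -1.83 at E12.5. Of 11 other pan-endocrine transcription factors, Lmx1a was higher late (0.644 and 0 against 11.4 FPKM) and 0 were higher early.

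Across the transcriptome, limma on the 3 sets called 0 of 13895 genes (0%) at an adjusted p of 0.05, two-sided with Benjamini-Hochberg adjustment. Unadjusted p values of this fit are not read, because the single late set has no spread of its own. The fit has 1 residual degree of freedom, and in simulated data of this size it recovered 0% of 100 genes changed by 4 log2 units and 0% of 100 changed by 8, so 0 calls says nothing of whether genes differ. With E14.5 run 2 as an added late set, limma called 11 of 14765 genes, and 3 of the called genes have a given symbol. These were Vtn (difference 7.92, SE 0.50, adjusted p 0.0215), Ins2 (-5.97, SE 0.44, adjusted p 0.0386) and Cpa1 (6.01, SE 0.49, adjusted p 0.0454). Pyy (2.16, SE 0.20) and Iapp (-4.06, SE 0.37) had adjusted p 0.0529 in that fit. It has no run term, and run 2 is on the late side alone, so run is mixed into the early against late difference. Entries without a given symbol held a median of 23.1% of the summed FPKM in E14.5 run 1 cells and 50.8% in run 2 cells. The limma fit of all 8 sets with run as a term called 16 of 15722 genes, and 5 of the called genes have a given symbol. Vtn was called (7.40, SE 0.66, adjusted p 0.0417), while Ins2 (-6.65, SE 1.40, adjusted p 0.346) and Cpa1 were not. The others called were the Y-linked Eif2s3y (6.39, SE 0.50), Prss50 (-5.22, SE 0.48), Gc (4.27, SE 0.41) and Nupr1 (5.47, SE 0.53). Their adjusted p values in that limma fit were 0.0417 to 0.0467. The spread in this fit is that between cell sets, which may be technical.

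By the rule of size 131 genes were higher early and 449 higher late. Of these, 115 and 212 have a given symbol; the others are predicted genes, small RNAs or similar entries. Of those with a given symbol, 26 and 19 were at 1 FPKM or more in at least 50% of the cells on their high side. The groups hold 18, 9 and 76 cells, so a transcript of rare cells is more readily absent from both early sets than from the late one, and the part of this in the larger late count was not tested. Without the 7 wells that hold markers of other types, 71 genes were higher early and 551 higher late.

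**Figure D2:**
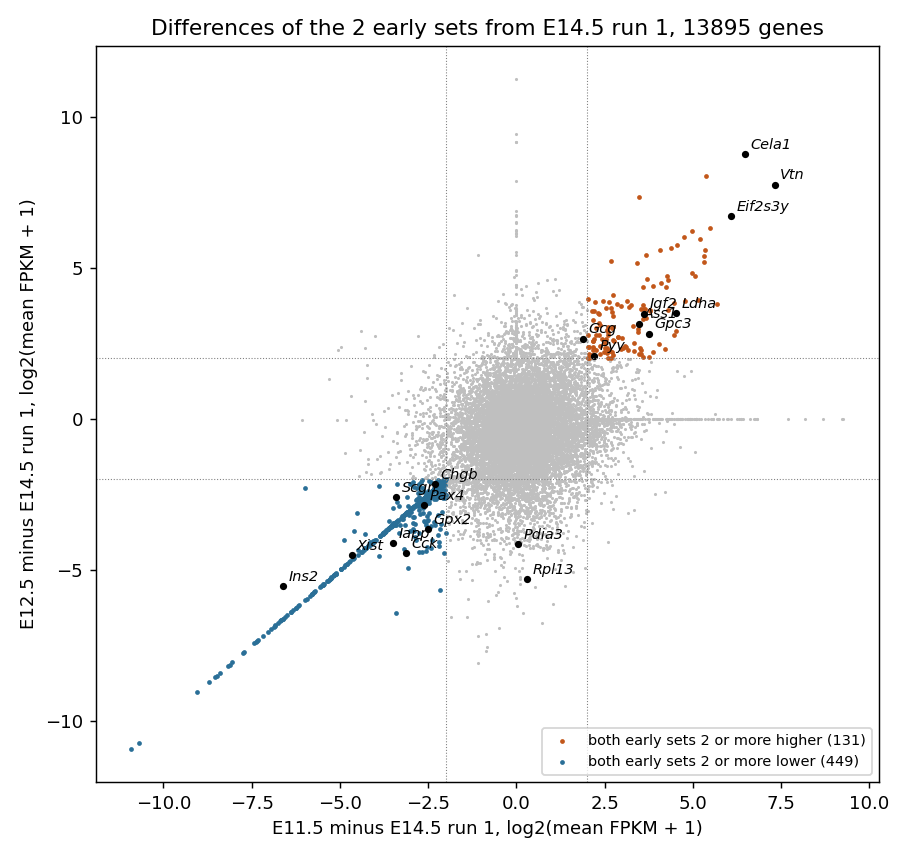
Difference of E11.5 (x axis) and of E12.5 (y axis) from E14.5 run 1 in log2(mean FPKM + 1) for 13895 genes; dotted lines mark 2 log2 units, and genes past them in both sets are coloured (131 higher early, 449 higher late). Both axes share E14.5 run 1, so the points are not independent along the diagonal, and the line of points at lower left is genes listed at 0 in both early sets.

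Of the 26 early-high genes found in at least 50% of early cells, the 12 with the largest gap, taken as the smaller of the gaps of the 2 early days, are described here. Genes such as Fgb and Gc have larger gaps but are found in fewer cells, and are given with their lists. Igf2, a fetal growth factor, averaged 163 FPKM at E11.5 (0, 41.1 and 697), 147 in E12.5 cells (0, 58.4 and 718) and 12.3 at E14.5 (0, 0 and 123). It reached 10 FPKM in 23 of 27 early cells (85.2%; 66.3 to 95.8) and 21 of 76 late cells (27.6%; 18 to 39.1). Igf2 was intermediate in E14.5 run 2, at 51.1 FPKM, so part of the difference lies within the spread between runs. Gpc3, a glypican that binds growth factors at the cell surface, averaged 547 (0, 407 and 1457), 282 (1.77, 157 and 925) and 39.3 FPKM (0, 1.75 and 392). It was at 10 FPKM in 23 of 27 against 23 of 76 cells. Ass1, argininosuccinate synthase of arginine synthesis, averaged 171, 137 and 14.6 FPKM. Ass1 reached 10 FPKM in all 9 E12.5 cells, 12 of 18 E11.5 cells and 16 of 76 late cells.

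Metabolic and cytoskeletal genes were in the same group. Ldha, lactate dehydrogenase A, which beta cells keep low later in life, averaged 605 FPKM at E11.5 (0, 335 and 1898), 299 in E12.5 cells (0, 88 and 1667) and 25.5 at E14.5 (0, 0 and 538). Cald1, the actin-binding protein caldesmon, averaged 23.3, 16.5 and 1.22 FPKM, but 8.04 in E14.5 run 2. Plac1, an X-linked gene of placenta, averaged 101, 118 and 1.5 FPKM, with 14 of 27 early cells and 2 of 76 late cells at 10 FPKM. Tnfaip8 averaged 60.5, 118 and 3.75 FPKM for the larger of its 2 entries.

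Exocrine genes were also among them, and they move with the acinar markers described above. Cela1, an elastase, averaged 551 FPKM at E11.5 (0, 67.7 and 4489), 2692 in E12.5 cells (0, 2.04 and 15366) and 5.26 at E14.5 (0, 0 and 154). Pnliprp1, a pancreatic lipase-related protein, averaged 280, 1763 and 5.73 FPKM, and Vtn, the adhesion protein vitronectin, 498, 667 and 2.12. A few cells carry the E12.5 means, since the E12.5 medians were 2.04, 3.79 and 5.84 FPKM. Without the wells that hold markers of other types the mean difference of Cela1 was 3.18 log2 units in place of 7.61, and that of Vtn 3.81 in place of 7.53. Cpa1 at 10 FPKM marked 11 of 27 early cells (40.7%; 22.4 to 61.2) and 2 of 76 late cells (2.63%; 0.32 to 9.18). The remaining 2 of the 12 are the Y-linked Eif2s3y (66.6, 104 and 0 FPKM) and Ddx3y (30.6, 27.5 and 0), with a difference of -0.03 for Eif2s3y against E15.5 run 1.

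Of the 19 late-high genes found in at least 50% of late cells, the 12 with the largest gap were taken in the same way, which leaves out Ins2, Ghrl, Iapp and others found in fewer cells. Among them Xist (0, 0.12 and 24.4 FPKM) marks sex. Scgn, secretagogin, a calcium sensor of insulin and glucagon release, averaged 58.1 FPKM at E11.5 (0, 2.93 and 549), 103 in E12.5 cells (0, 20.9 and 342) and 624 at E14.5 (0, 447 and 2788). It reached 10 FPKM in 13 of 27 early (48.1%; 28.7 to 68.1) and 64 of 76 late cells (84.2%; 74 to 91.6), and without the wells that hold markers of other types in 12 of 21 (57.1%; 34 to 78.2) and 63 of 75 (84%; 73.7 to 91.4). Scgn kept its direction against E15.5 run 1, where the mean difference was -3.14. Cck, cholecystokinin, a gut and islet peptide, averaged 14.7, 5.31 and 136 FPKM, with 4 of 27 and 45 of 76 cells at 10 FPKM.

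Gpx2, a glutathione peroxidase, averaged 47.7 FPKM at E11.5 (0, 0 and 242), 20.9 in E12.5 cells (0, 0 and 188) and 273 at E14.5 (0, 119 and 1856). Pdk2, a kinase that inhibits pyruvate dehydrogenase, averaged 10.5, 10.9 and 90.5 FPKM. Pdk2 and Ldha thus lay on opposite sides of the comparison over all endocrine cells, and a link between them was not tested. Fos, an immediate-early transcription factor, averaged 15.8, 23.3 and 144 FPKM. Selm, a selenoprotein of the endoplasmic reticulum, averaged 26.1, 27.5 and 154. Npepl1 (7.17, 0 and 85.1 FPKM), Mia (46.2, 68.1 and 334), the sialyltransferase St3gal6 (9.14, 4.90 and 60.6) and the ubiquitin ligase Ube3c (2.36, 3.71 and 21.5) complete the group with Pax4.

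The lists for cell state are read against the background of 0.943% and 3.23%, and no list was tested. In the list of fetal growth and developmental timing, 1 of 18 tested genes, Igf2, was higher early and 1, the imprinted Plagl1 (0, 0 and 3.47 FPKM), higher late. Of 12 liver-type secreted protein genes, the fibrinogen chains Fgb (36.7, 85.8 and 0.608 FPKM) and Fgg (3.54, 4.68 and 0.103) were higher early and Apoa1 (0.716, 0.235 and 6.24) higher late; the list's median difference was 1.10 at E11.5 and 1.98 at E12.5. Of 10 tested acinar or tip genes, 4 were higher early, namely Cpa1, Cel, Rbpjl and Cela1, of which Cel and Rbpjl are named after their values were seen. Among 19 trunk and duct genes, Id3, an inhibitor of bHLH factors, was higher early (156, 202 and 25.3 FPKM) and 0 were higher late. This did not hold in narrower cell sets. Of 18 tested genes of that list, 0 were higher early among cells with 3 or 4 marker transcripts. The count was also 0 of 18 with Neurog3 below 10 FPKM and with Gcg at 100 FPKM or more. In the Gcg cells 2 of the 18, Spp1 and Krt19, were higher late, against 8.54% of all genes there.

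Cell cycle genes set the 2 early days apart from each other. The median difference of 30 tested genes was 1.25 at E11.5 but -0.61 at E12.5, and 0 were past the rule of size. Among cells with 3 or 4 marker transcripts it was 0.33 and -0.65 over 28 tested genes, so the E11.5 excess was smaller there. The replication genes Mcm2 (74.7, 40.8 and 19.2 FPKM) and Rrm2 (24.7, 31.6 and 9.71) had the largest mean differences. At least 2 of Mki67, Top2a, Ccnb1 and Cdk1 reached 10 FPKM in 2 of 18, 0 of 9 and 2 of 76 cells, so few endocrine cells of any day carried a mitotic signature. Among 4 tested CDK inhibitors 0 were past the rule, with Cdkn1b at 10.2, 2.77 and 11.6 FPKM and Cdkn1c at 11.7, 1.64 and 11.7. Of 16 genes for neuronal cytoskeleton and migration 0 were past it, and Stmn2 (32.8, 0 and 0) and Crmp1 (24.1, 0.36 and 0.187) were carried by 1 and 3 cells of E11.5. Of 13 immediate-early genes, Myc (14, 12.1 and 0.075) was higher early and Fos and Ier3 (0, 0 and 10.8) higher late.

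**Figure D3:**
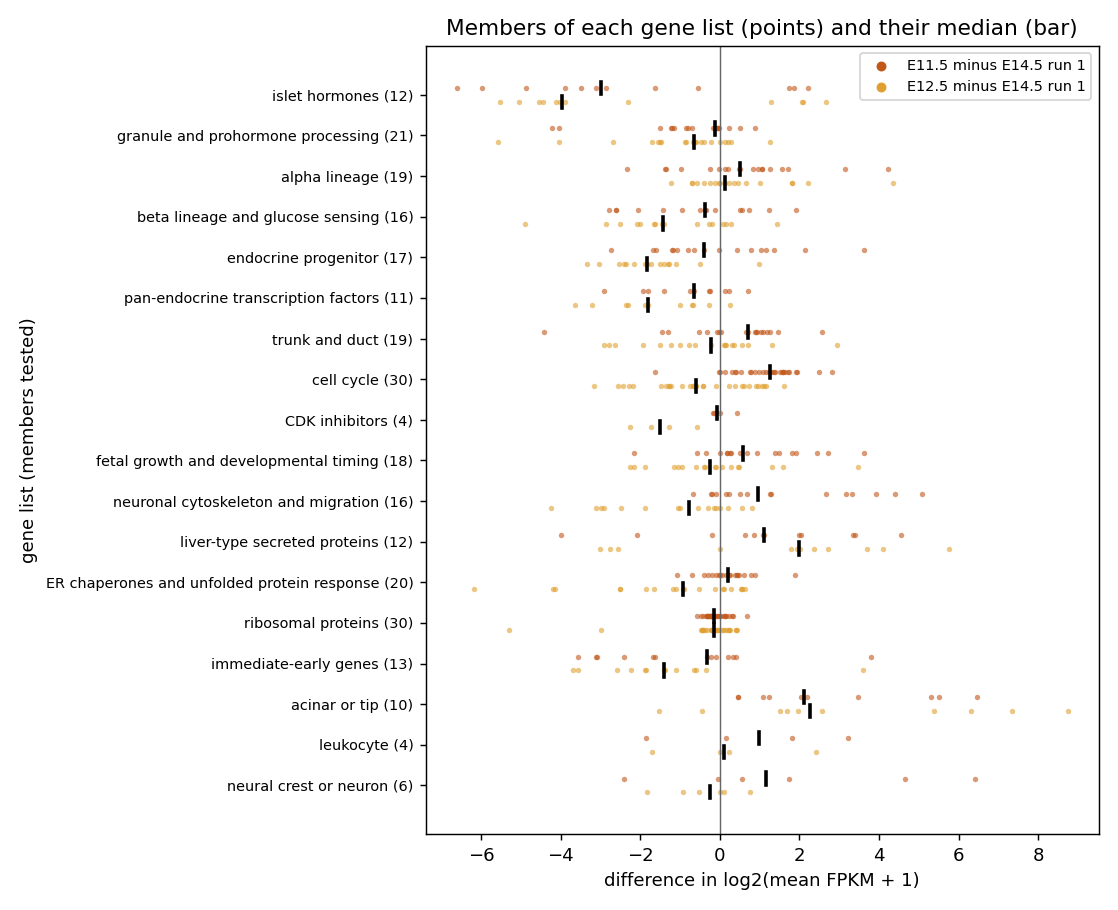
Differences of list members from E14.5 run 1 in log2(mean FPKM + 1), for E11.5 and E12.5; points are genes and bars are medians, with the number of members tested in brackets. The hormone list lies mostly to the left, the acinar or tip list to the right, and the cell cycle list on opposite sides of 0 for the 2 days.

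To compare like with like, endocrine cells with Gcg at 100 FPKM or more were set side by side, 5 from E11.5, 5 from E12.5 and 10 from E14.5. In these cells 2.79% of 12610 tested genes were higher early and 8.54% higher late by the rule of size, which with so few cells is a loose rule. Chgb, a gene of the cell definition and so described without a test, averaged 213 and 210 FPKM early and 7905 late. The late mean was 5741 FPKM without the highest late cell, and the late median was 3096. Scgn averaged 29.7 and 116 against 752, and Iapp 275 and 89.1 against 4464, or 1279 without the highest late cell. Ghrl was on the other side, at 1016 and 927 against 75.7 FPKM, the reverse of its direction over all endocrine cells.

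Several of the early-high genes of all endocrine cells were also past the rule in glucagon cells alone. Ass1 averaged 83.2 and 114 FPKM against 5.17, with 10 of 10 early and 2 of 10 late cells at 10 FPKM. Igf2 averaged 71.7 and 42.3 against 2.31, Gpc3 110 and 102 against 6.86, Plac1 90.3 and 190 against 1.11, and Cald1 37.2 and 28.5 against 0.136. Ldha did not pass it there (38.8 and 90.4 against 30.3). Fos and Gpx2 were listed at 0 in all 10 early glucagon cells and averaged 129 and 57 FPKM in the late ones. A single late cell carries most of the Fos mean, which is 4.93 FPKM without it, and Gpx2 without that cell averaged 36.4. Pax4 (31.9 and 20.1 against 23) and Pcsk2 (325 and 303 against 501) were not past the rule. Cells with Neurog3 below 10 FPKM gave 1.17% higher early and 4.42% higher late of 13696 genes.

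The other days place the early sets in a series. Vtn, at 498 and 667 FPKM on the early days, averaged 21.4 and 3.85 in the E13.5 runs, 2.12 and 0.836 in those of E14.5, and 0.511 and 0.409 in those of E15.5. Gpc3 averaged 125 and 79.4 FPKM in the E13.5 runs, 39.3 and 33.3 in the next pair and 33.7 and 15.6 in the last. Ins2 went the other way, from 83.8 and 2.02 FPKM at E13.5 to 24768 and 47658 at E15.5. Pax4 was highest between, averaging 1370 and 812 FPKM at E13.5 and 484 and 224 at E15.5. Runs of a day differ widely for some genes, as Ghrl and Igf2 show, and E13.5 and E14.5 cells hold Xist while E15.5 cells hold Y-linked transcripts.

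**Figure D4:**
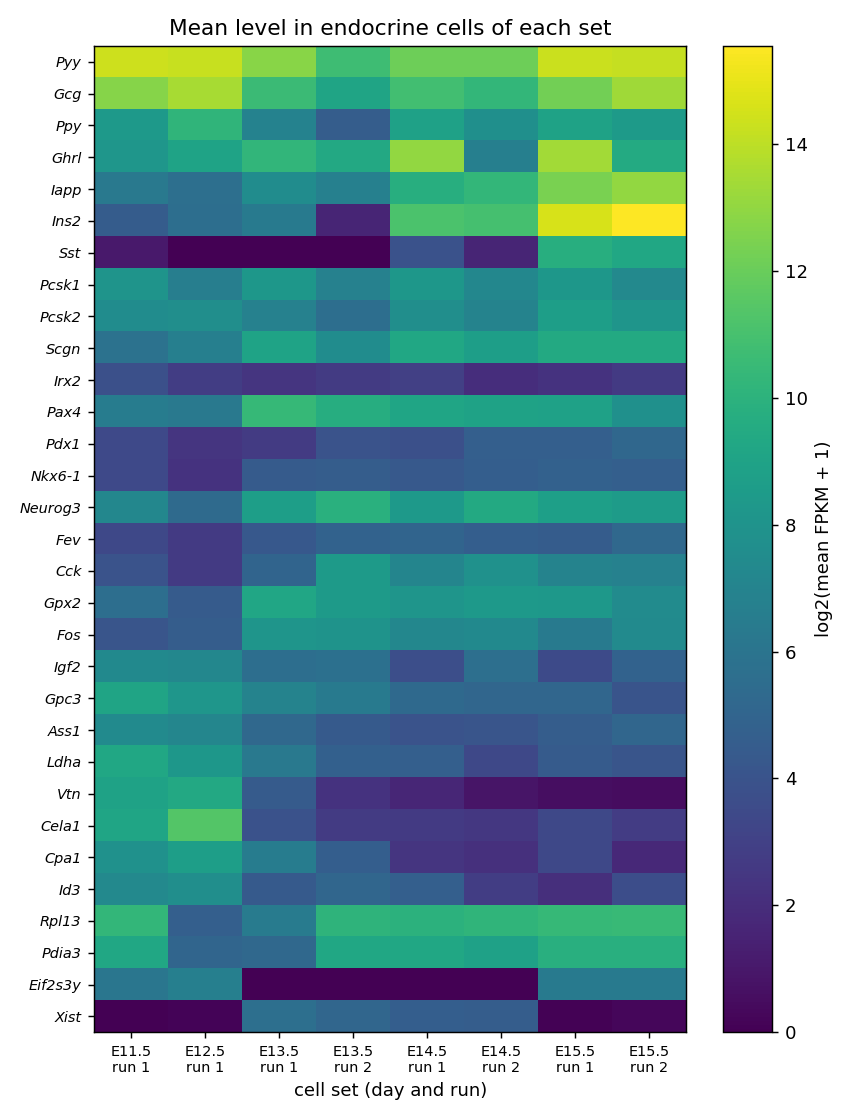
Mean level of named transcripts in the endocrine cells of each of the 8 sets, as log2(mean FPKM + 1), with days in columns. Gpc3, Ldha, Vtn and Cela1 are brightest on the 2 early days, Ins2 and Iapp at E15.5, and Rpl13 and Pdia3 are dark at E12.5 and E13.5 run 1.

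Transcripts rich in G and C were low at E12.5. The median of genes with a transcript GC content above 60% lay below that of genes with 40 to 50% by 0.64 log2 units in E11.5 cells, 2.05 in E12.5 cells and 1.01 in those of E14.5 run 1 (462 and 7469 genes). E13.5 run 1 had 1.51 and the other 4 sets 0.22 to 0.44, so both E12.5 and E13.5 run 1 stand apart. Against E14.5 run 1, the median difference of 376 tested genes above 60% GC was 0.52 at E11.5 and -0.74 at E12.5, while for genes of 40 to 45% it was 0.02 and -0.20.

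A few abundant housekeeping transcripts were low at E12.5 beyond that trend. Rpl13, a ribosomal protein gene with a GC content of 52%, averaged 1276 FPKM at E11.5 (484, 1106 and 2637), 25.1 in E12.5 cells (0, 19.9 and 72.9) and 1031 at E14.5 (155, 844 and 3604). Every E12.5 cell lay below every cell of E11.5 and of E14.5 run 1. Rps2 averaged 522, 40.1 and 328 FPKM, the chaperone Pdia3 621, 33 and 599, and the chaperone cofactor Sdf2l1 72.7, listed at 0, and 72.2. The same 4 transcripts averaged 87, 44.4, 36.9 and 1.40 FPKM in E13.5 run 1 and 1092, 501, 601 and 45.2 in E13.5 run 2. The median of the 30 ribosomal protein genes was -0.14 at E12.5, so most of that list was not low. Of the GC-rich genes named above, Fev (63.2% GC), Cdkn1c (59.4%) and Nkx6-1 (59%) lay lower at E12.5 than at E11.5, where day and GC content cannot be told apart. Pyy, with 57.3% GC, was high at E12.5, and the part of GC content in its level was not tested. The rule of size asks for both early days, and of genes above 60% GC it counted 0.80% as higher early and 2.93% as higher late. The share higher early was not even over GC content. It was 0.65 to 0.66% in the bins below 50% GC, 1.17% at 50 to 55% and 1.64% of 2262 genes at 55 to 60%. The share higher late was 2.78 to 3.69% in all bins. The part of GC content in these shares was not tested.

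**Figure D5:**
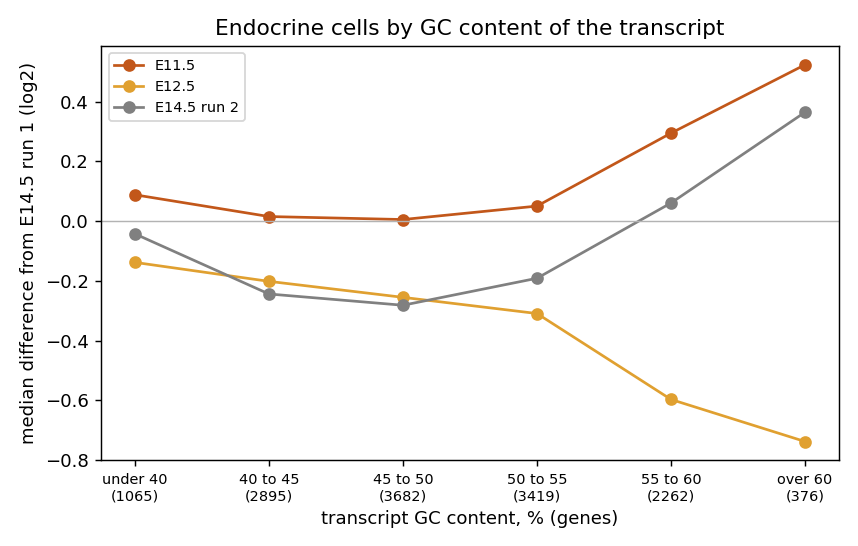
Median difference from E14.5 run 1 in log2(mean FPKM + 1) by GC content of the longest transcript, with the number of genes under each bin, for E11.5, E12.5 and E14.5 run 2. The E12.5 line falls to -0.74 above 60% GC while the E11.5 line rises to 0.52 and that of E14.5 run 2 to 0.36.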

How the data were processed

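Single-cell FPKM values per gene (32913 entries, 32806 of them Ensembl genes) were deposited by the authors, who per the submitters' processing notes aligned reads with TopHat2 2.0.13 to mm10 and computed values with Cufflinks 2.2.0; annotation and use of strand are not given in the sources used here. FPKM are not counts, so no count model was used. Cells were taken from the labels' day, run and fragment total; doublets were not called, and wells with markers of other types were counted instead. FPKM were averaged over the endocrine cells of a set, log2-transformed after adding 1, and tested with limma 3.58.1 (R 4.3.3; trend, Benjamini-Hochberg) over genes with a mean of at least 1 FPKM; a log2 difference on this scale understates that of low genes. Named genes were the hormones, lineage factors and rule genes, per direction the 12 given symbols with the largest gap (the smaller of the 2 early gaps) among those past the rule of size and at 1 FPKM in at least 50% of cells on the high side, and up to 4 (else 2) per list of 15 lists; some lineage factors are not reported here. Members and lists were chosen with earlier results of these data known. GC content came from GENCODE vM21 transcripts (31823 genes matched). Python 3.11.15, numpy 2.4.6, pandas 2.3.3 and scipy 1.17.1 were used. The test was checked on simulated data. Transcript isoform values were not used.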

Additional observations from a re-analysis of the deposited data

Results flagged for a closer look

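The cell cycle list lay above E14.5 run 1 at E11.5 (median difference 1.25 log2 units over 30 genes) and below it at E12.5 (-0.61), opposite directions on the 2 early days. The list of neuronal cytoskeleton and migration genes did the same, with medians of 0.96 at E11.5 and -0.77 at E12.5 over 16 genes. Among cells with 3 or 4 marker transcripts the neuronal list had medians of -0.34 and -0.79 over 15 genes, below E14.5 run 1 on both days. The cell cycle list had 0.33 and -0.65 over 28 genes in those cells. Neither difference between the days was tested, both use the same E14.5 cells, and the median of all genes was 0.08 and -0.31. The E12.5 set has 9 cells and low GC-rich transcripts, and the part of either in these medians was not tested.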

How the results depend on the processing

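No paired analysis was possible because replicate numbers only name cells within a day and run in accession order. The count of limma calls was 0 in 11 of 14 alternatives; it was 11 with both E14.5 runs as late sets, 16 with all 8 sets and run as a term (11 of them predicted or small RNA entries) and 80 after centring on genes of like GC content, where limma pooled the spread to 1 value for all genes. Leaving out an early set left no residual degrees of freedom and no test. The rule of size was not applied to the 8-set fit. Genes higher early numbered 413 with a pseudocount of 0.1, 27 with 10, 61 with logs averaged over cells, 352 in Gcg cells, 71 without wells of other types, 624 at a difference of 1 log2 unit (chosen after seeing the data) and 654 to 963 with either early set left out. Genes higher late numbered 87 with a pseudocount of 10, 20 with logs averaged over cells, 835 with both E14.5 runs, 1077 in Gcg cells, 1032 at 1 log2 unit and 748 to 1761 with either early set left out. The other alternatives gave 99 to 160 and 360 to 628, including E15.5 run 1 as the late set (144 and 628), also chosen after seeing the data, as were the shares of cells without wells of other types.

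The mean difference turned sign for Eif2s3y against E15.5 run 1 (-0.032), for Gc (-1.48), Ghrl (3.66), Pax4 (0.14) and Sst (1.13) in Gcg cells, and for Ghrl (0.51) and Ins2 (0.41) with logs averaged over cells; the cause was not tested. Without wells of other types the endocrine share of E12.5 was 21.4%, as fewer other cells remain. The GC difference at E12.5 was -3.14 with a pseudocount of 0.1, -0.54 with 10, 0 with no filter and -0.76 with logs averaged; that of E14.5 was -1.89 in Gcg cells. The number of early cells limits every share.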
